A study of Mus musculus with 8 samples.

Results

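The 35 endothelial markers are genes that endothelial cells, the lining of blood and lymph vessels, are known to express: receptors for vascular growth factors, junction and adhesion proteins, surface glycoproteins, secreted proteins and the transcription factors that maintain the lineage. They were measured in nephron progenitor cells, a cell type that does not line vessels, so their signal gauges RNA of endothelial type in the sorted material. A member was found through the RefSeq accession of its array probes, and the brightest probe in Cy5 stood for the gene. All 35 had a probe (45 probes in all), and all 35 passed the filter on dim probes, among 22662 genes tested from 55681 probes.

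RNA came from EGFP+ cells sorted from C57BL/6 kidneys at embryonic day 15.5. The 4 mutant pools had the genotype Six2CreEGFP+; HDAC1&2f/f and the 4 wildtype pools Six2CreEGFP+; HDAC1&2+/+, so the Cre and EGFP transgene was in both groups. The Six2 promoter drives Cre in nephron progenitors of the cap mesenchyme, and the floxed alleles of the histone deacetylases Hdac1 and Hdac2 are then deleted in those cells and their descendants. The number of animals in a pool, and whether any animal went into more than 1 pool, are not given in the sources read. Each pool was labelled with Cy5 and hybridised to 1 two-colour array against wildtype pool 1 in Cy3. Values below are log2 ratios of Cy5 over Cy3, which are levels relative to wildtype pool 1, and log2 differences, mutant minus wildtype, between mean ratios.

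Pools 3 and 4 differed in Cy5 by a median absolute deviation of 0.0841 in wildtype and 0.0893 in mutants, inside the range of 0.0677 to 0.116 found for the shared Cy3 RNA between the arrays other than wildtype 2, though above its 0.0702 and 0.0709 on the same array pairs. They were counted as 1 sample, which left 3 samples per group, although the labels call all 4 pools of a group biological replicates. On 7 arrays 28150 to 33982 of the 55681 probes exceeded background clearly in Cy5, and on the wildtype 2 array 48627 did. Between different probes of 1 gene the median SD was 0.245 on the mutant 1 array and 0.0826 to 0.142 on the others (3916 genes). Values without these arrays are given beside the results that they move. Of the deleted genes, Hdac1 differed by -0.30 ± 0.09 (SE) and Hdac2 by -0.13 ± 0.14, with adjusted p-values of 0.476 and 0.84. The position of their probes against the deleted exons was not examined, so these values do not check the deletion. Of 15 progenitor markers, 14 were well above background on all 8 arrays, and Six2 itself differed by -0.13 ± 0.14 (SE, adjusted p = 0.839). Cited1, a co-regulator of uninduced progenitors, was the only one of the 15 to pass, and fell by 2.72 (SE 0.13, adjusted p = 0.00279).

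Endothelial cells enter the developing kidney around the nephron progenitors and supply its capillaries. Vascular endothelial growth factor (VEGF) binds the receptor tyrosine kinases Kdr, Flt1 and Flt4, angiopoietins bind Tek, and transcription factors of the ETS, SOX and GATA families act on many endothelial promoters. ETS factors bind DNA around the letters GGAA. Upstream sequence was available from RefSeq (GRCm38.p6) for 18 of the 35 genes, as 23 windows of 250 bases ending at a transcription start. Windows of 4 genes with 1 start each are shown because these genes frame the results. Flt1, Robo4 and Cd34 were higher in the mutant sample of every pool pair, and Tek had the lowest difference of the list. Even so, Tek was higher in the mutant sample of 2 of the 3 pairs. Capitals mark GGAA, or TTCC where the core lies on the other strand.
Flt1, chr5:147726012-147726261, minus strand: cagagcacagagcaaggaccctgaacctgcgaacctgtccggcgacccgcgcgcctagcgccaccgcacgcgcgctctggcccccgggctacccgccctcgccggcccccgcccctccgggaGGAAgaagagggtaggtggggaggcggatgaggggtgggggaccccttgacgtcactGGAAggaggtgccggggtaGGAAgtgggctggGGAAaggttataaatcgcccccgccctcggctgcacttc
Robo4, chr9:37401722-37401971, plus strand: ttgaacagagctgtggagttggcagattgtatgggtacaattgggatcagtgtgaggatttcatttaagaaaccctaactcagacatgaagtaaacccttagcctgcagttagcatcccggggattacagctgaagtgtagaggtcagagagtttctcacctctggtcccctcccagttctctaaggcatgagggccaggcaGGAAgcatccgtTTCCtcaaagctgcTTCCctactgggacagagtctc
Cd34, chr1:194938571-194938820, plus strand: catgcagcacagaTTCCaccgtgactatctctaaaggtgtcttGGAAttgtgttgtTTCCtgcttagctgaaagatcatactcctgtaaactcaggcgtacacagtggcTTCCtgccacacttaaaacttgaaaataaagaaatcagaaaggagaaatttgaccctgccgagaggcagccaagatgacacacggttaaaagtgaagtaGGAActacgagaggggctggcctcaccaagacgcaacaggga
Tek, chr4:94739039-94739288, plus strand: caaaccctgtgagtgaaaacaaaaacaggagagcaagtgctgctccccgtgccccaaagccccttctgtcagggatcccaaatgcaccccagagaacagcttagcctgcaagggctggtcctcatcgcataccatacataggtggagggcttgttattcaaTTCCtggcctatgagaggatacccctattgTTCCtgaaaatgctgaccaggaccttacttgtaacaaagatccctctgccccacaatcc

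The core occurred 4 times in the Flt1 window, 3 times in that of Robo4, 5 times in that of Cd34 and 2 times in that of Tek. It is common by its shortness: GGAA on either strand was in 22 of the 23 member windows, and in 93.4% of 32851 windows of the same length over all genes. The longer form CCGGAA, which contains the core, was in 1 of the 23 windows against 12% of all. The tandem GGAAGGAA was in 1 of 23 (3.12% of all), the SOX core ACAAT in 7 of 23 (27.7%) and the GATA form AGATAA in 2 of 23 (9.99%), each on either strand. These shares describe letters in the windows, and no binding was measured.

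Endothelial markers were measurable in every pool. All 35 were well above background in Cy5 on all 8 arrays, as were 89.9% of all genes tested. The genes tested had already passed a filter on this measure. Without that filter there were 37018 genes, of which 20430 had a probe above background on all 8 arrays. The sum of their Cy5 levels ranged from 135760 to 155573 intensity units in wildtype samples and from 150694 to 184491 in mutant samples. The mutant 2 value lay within the wildtype range. Over all genes tested the sums ran from 160732000 to 185553000 in wildtype and from 168594000 to 177405000 in mutant samples. These levels were not scaled between arrays, and bright genes weigh most in a sum. In these bulk samples, a different number of endothelial cells and a different amount of RNA per cell cannot be told apart. Nor can RNA of endothelial cells be told apart from expression of these genes by the progenitors.

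No single member passed the test, and most had a slightly higher mutant mean. In limma 0 of 35 were called at an adjusted p under 0.05, against 0.0441% of all genes (0.0221% higher and 0.0221% lower), and 0 had an unadjusted p under 0.05, against 7.24% of all genes. The median difference was 0.17, against 0.0017 over all genes tested. The mutant mean was higher for 30 of 35 members, against 50.5% of all genes. With arrays centred on spike-in controls the median turned to -0.0185 with 16 of 35 higher, and without the wildtype 2 array it was 0.0716. Marker lists of stroma (median 0.20) and ureteric bud (0.19) differed by as much as the endothelial list, and their part in its difference was not tested. Differences ran from -0.17 for Tek to 0.49 for Cdh5, and 19 of the 35 were under 0.2 in size. Single values leaned on few arrays: without mutant 1, 15 of the 35 shrank by over 1.5 times, 1 grew by as much and 5 took the opposite sign, and without wildtype 2 these counts were 18, 2 and 3. The array of wildtype pool 1, where Cy5 and Cy3 held RNA of 1 pool, gave members a median ratio of 0.0712 in size and at most 0.336. Over all genes this median was 0.0851. The largest was Clec14a, which read -0.34 there and -0.56, -0.29 and -0.34 on the other wildtype arrays. An offset shared by all arrays stays in such a ratio and cancels in a group difference. These sizes from 1 array are therefore not the spread of a difference between groups.

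**Figure D1:**
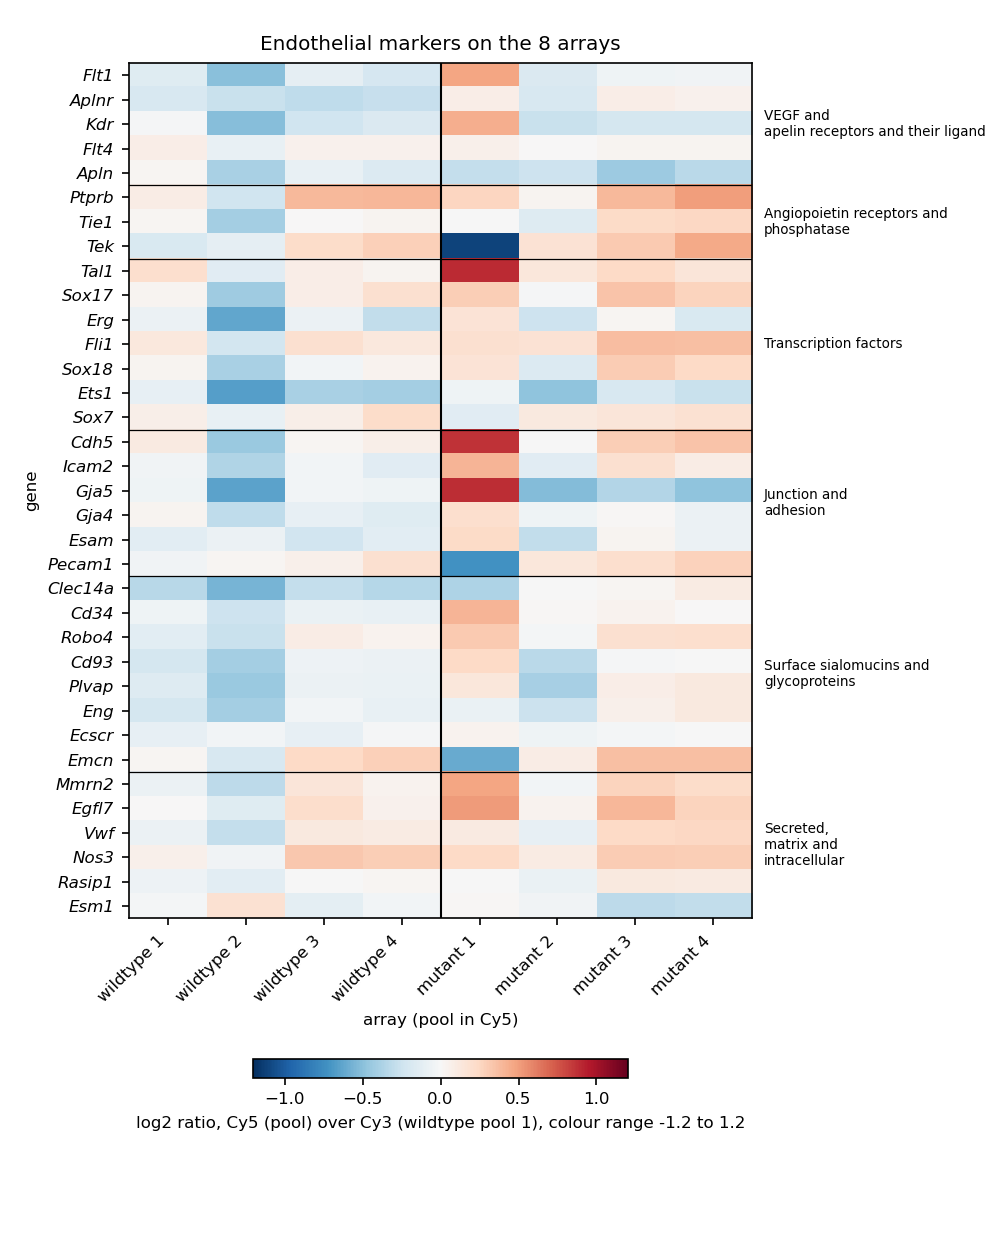
Log2 ratio of each of the 35 endothelial markers to wildtype pool 1 (colour, from blue for lower to red for higher) on the 8 arrays (columns), grouped by role (rows). On the wildtype 2 array 2 of 35 genes are above 0, and on the mutant 1 array Tal1, Gja5 and Cdh5 read 0.89, 0.89 and 0.87 while Tek, Pecam1 and Emcn read -1.11, -0.73 and -0.60.

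Receptors for VEGF and apelin and the ligand apelin made up 5 members, 4 of them with a higher mutant mean (median 0.23). Flt1, a VEGF receptor that also acts as a decoy, read -0.14, -0.50, -0.10 and -0.20 in wildtype pools 1 to 4 and 0.48, -0.18, -0.05 and -0.04 in mutant pools 1 to 4. Mutant pools 1, 3 and 4 lay above every wildtype pool, the latter pair narrowly, and mutant 2 did not. Flt1 differed by 0.35 ± 0.19 (SE, adjusted p = 0.779), and by 0.15 without mutant 1 and 0.23 without wildtype 2. Kdr, the main signalling receptor for VEGF, read -0.02, -0.51, -0.24 and -0.17 in wildtype and 0.44, -0.27, -0.21 and -0.21 in mutant pools. Only mutant 1 lay above the wildtype pools, and Kdr differed by 0.23 ± 0.22 (SE). Without mutant 1 the difference was 0.0047, without wildtype 2 it was 0.098, and the second probe of Kdr gave 0.06. Flt4, the VEGF receptor of lymphatic endothelium, read between -0.09 and 0.08 on all arrays and differed by 0.02 ± 0.09. It was the dimmest member, with a mean Cy5 level of 7.30 in log2. With quantile-normalized Cy5 levels its difference was 0.31 ± 0.37 (SE).

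Aplnr, the apelin receptor of venous and sprouting endothelium, had the smallest p-value of the list. It read -0.19, -0.26, -0.30 and -0.28 in wildtype and 0.08, -0.19, 0.08 and 0.05 in mutant pools. Wildtype 1 and mutant 2 were close, and otherwise the mutant pools were higher, with a difference of 0.23 ± 0.11 (SE, adjusted p = 0.742). Its ligand gene Apln, a gene of sprouting tip cells, read 0.02, -0.39, -0.09 and -0.16 in wildtype and -0.29, -0.25, -0.44 and -0.32 in mutant pools. It was thus lower in mutant pools 1, 3 and 4 and not in pool 2, with a difference of -0.14 ± 0.13 (SE). It was -0.26 without wildtype 2 and turned to 0.16 with quantile-normalized Cy5 levels.

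Of the angiopoietin receptors, Tek, which binds angiopoietins, had the widest range over the 8 arrays, while Gja5 had the larger SE. It read -0.18, -0.11, 0.22 and 0.28 in wildtype and -1.11, 0.17, 0.31 and 0.46 in mutant pools. The mutant 1 pool was far below all others, whereas the mutant pools of the other numbers were above their wildtype counterparts. The difference was -0.17 ± 0.38 (SE, adjusted p = 0.922), and 0.29 without the mutant 1 array. Tie1, an orphan receptor that pairs with Tek, differed by 0.15 ± 0.16 and was higher in 2 of 3 pairs. Ptprb, the phosphatase that dampens Tek, read -0.24 to 0.40 in wildtype and 0.03 to 0.50 in mutant pools and differed by 0.16 ± 0.18, with 0.37 at its second probe.

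All 7 transcription factors had a higher mutant mean (median 0.22), and 6 of them were higher in all 3 pairs. Tal1, a regulator of blood and endothelial precursors, read 0.20, -0.13, 0.08 and 0.03 in wildtype and 0.89, 0.14, 0.24 and 0.14 in mutant pools, a difference of 0.36 ± 0.21 (SE, adjusted p = 0.79). It was 0.12 without mutant 1. Mutant pools 1 and 3 lay above every wildtype pool, and mutants 2 and 4 did not. The SOX factors, which act in arterial and lymphatic specification, differed unequally: Sox17 by 0.28 ± 0.17, Sox18 by 0.21 ± 0.16 and Sox7 by 0.01 ± 0.12. Sox17 gave 0.37 at its second probe. The ETS factors Erg, Fli1 and Ets1 differed by 0.24 ± 0.18, 0.22 ± 0.13 and 0.13 ± 0.18. Second probes of Erg and Ets1 both gave 0.06. Their mean Cy5 levels were 6.52 and 10.5 in log2, against 8.15 and 10.8 at the brightest probes. At the second probes, Erg was lower in the mutant sample of pools 3 and 4 (-0.06), and Ets1 in that of pool 1 (-0.19). Fli1, which blood cells also express, was lower in all 4 wildtype arrays (-0.22 to 0.19) than in mutants 3 and 4 (0.37 and 0.36). With pools 3 and 4 averaged, its 3 mutant samples lay above its 3 wildtype samples. Pool by pool they overlapped, since mutant 2 (0.17) lay below wildtype 3 (0.19).

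Of 6 junction and adhesion genes 5 had a higher mutant mean (median 0.20). Cdh5 encodes VE-cadherin, the cadherin of endothelial junctions. It read 0.11, -0.44, 0.02 and 0.07 in wildtype and 0.87, -0.01, 0.29 and 0.34 in mutant pools. Mutant pools 1, 3 and 4 were above every wildtype pool and mutant 2 was not, and the difference was 0.49 ± 0.25, or 1.4-fold (SE, adjusted p = 0.754). It was the largest of the list, but 0.25 without mutant 1, where Clec14a was largest at 0.43, and 0.31 without wildtype 2. Icam2, an adhesion molecule for leukocytes, read -0.05, -0.36, -0.03 and -0.13 in wildtype and 0.41, -0.13, 0.19 and 0.09 in mutant pools, a difference of 0.30 ± 0.16 (SE) that was 0.17 without mutant 1. As for Cdh5, mutant 2 was the pool within the wildtype range.

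Pecam1, another adhesion protein of endothelial junctions, went with Tek: it read -0.04, 0.02, 0.06 and 0.19 in wildtype and -0.73, 0.14, 0.20 and 0.28 in mutant pools. Without the low mutant 1 pool its difference turned from -0.16 ± 0.25 (SE) to 0.15. Esam, a tight junction adhesion molecule, differed by 0.10 ± 0.14 (-0.03 without mutant 1). The gap junction gene Gja4 differed by 0.17 ± 0.13. Gja5, a connexin of arterial endothelium, was at 0.89 in mutant 1 and from -0.52 to -0.35 in the other mutant pools, so that its difference of 0.23 ± 0.38 became -0.22 without the mutant 1 array.

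Among 8 surface glycoproteins 7 had a higher mutant mean (median 0.19). Cd34, a sialomucin of capillaries and blood progenitors, read -0.05, -0.24, -0.08 and -0.09 in wildtype and 0.41, 0.01, 0.04 and 0.00 in mutant pools. Every mutant pool was above every wildtype pool, but 3 of the 4 mutant pools by little, and the difference was 0.27 ± 0.14 (SE, adjusted p = 0.753). It was 0.14 without mutant 1. The second probe of Cd34 gave 0.04 and was far dimmer, with a mean Cy5 level of 7.98 in log2 against 14.2. Robo4, a guidance receptor that stabilises vessels, differed by 0.27 ± 0.13 and Cd93, a lectin-like receptor, by 0.20 ± 0.17, both higher in all 3 pairs. Clec14a, a C-type lectin of sprouting vessels, read -0.34, -0.56, -0.29 and -0.34 in wildtype and -0.37, -0.01, 0.02 and 0.10 in mutant pools. Here mutant 1 was the low mutant pool, and the difference was 0.30 ± 0.14 (SE, adjusted p = 0.749).

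Plvap, which forms the diaphragms of fenestrated endothelium, differed by 0.17 ± 0.18, and its second probe by -0.10. It was the only 1 of 8 second probes past the filter with the opposite sign. Dim second probes that failed the filter gave -0.17 for Gja5 and -0.0005 for Clec14a, also opposite to the brightest probe. Eng, a co-receptor for TGF-beta family ligands, differed by 0.15 ± 0.14. Ecscr, which regulates endothelial migration, varied little, from -0.10 to -0.02 in wildtype and -0.05 to 0.04 in mutant pools, with a difference of 0.05 ± 0.09. Emcn, an endothelial sialomucin, read 0.02, -0.19, 0.24 and 0.29 in wildtype and -0.60, 0.08, 0.36 and 0.36 in mutant pools. Its low value in mutant 1 resembled those of Tek and Pecam1, and its difference of -0.08 ± 0.25 became 0.19 without that array.

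Of 6 secreted, matrix and intracellular members 5 had a higher mutant mean (median 0.13). Mmrn2, an extracellular matrix protein of vessels, read -0.07, -0.32, 0.15 and 0.04 in wildtype and 0.48, -0.03, 0.27 and 0.22 in mutant pools, a difference of 0.33 ± 0.16 (SE, adjusted p = 0.754) that was 0.21 without mutant 1. Egfl7, a secreted protein of growing vessels, read 0.00, -0.14, 0.21 and 0.05 in wildtype and 0.51, 0.04, 0.40 and 0.27 in mutant pools, a difference of 0.30 ± 0.14 (SE, adjusted p = 0.749) that was 0.19 without mutant 1. In both genes mutant 2 lay within the wildtype range and the other mutant pools above it. Vwf, the platelet-binding protein, differed by 0.17 ± 0.14 and Rasip1, which is needed for vessel lumens, by 0.07 ± 0.10. The nitric oxide synthase gene Nos3 differed by 0.10 ± 0.12, and by 0.02 at its second probe. Esm1, a secreted marker of tip cells, read -0.02, 0.19, -0.12 and -0.04 in wildtype and 0.01, -0.05, -0.31 and -0.30 in mutant pools. Its difference was -0.14 ± 0.13 (SE), and -0.063 without wildtype 2.

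Pools of the same number resembled each other, and so each mutant sample was also set against the wildtype sample of its number. The members' median difference was 0.18 in pool 1, 0.22 in pool 2 and 0.13 in pools 3 and 4, against -0.0196, 0.05 and 0.0043 over all genes. The mutant sample was higher for 27, 32 and 29 of the 35 members, against 47.6%, 60.8% and 51% of all genes. For 21 members (60% of the list) it was higher in all 3 pairs, against 23% of all genes, and for 0 it was lower in all 3, against 17.4%. The members share these samples, so the counts are not independent observations. In the fit with pool number as a replicate block, 0 members passed (0.15% of all genes did), and 9 had an unadjusted p under 0.05, or 25.7% of the list against 12.7% of all genes (7.77% higher). These were Cdh5, Tal1, Flt1, Mmrn2, Icam2, Egfl7, Sox17, Cd34 and Robo4, all higher in the mutants, and Cdh5 had the smallest adjusted p, 0.23.

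**Figure D2:**
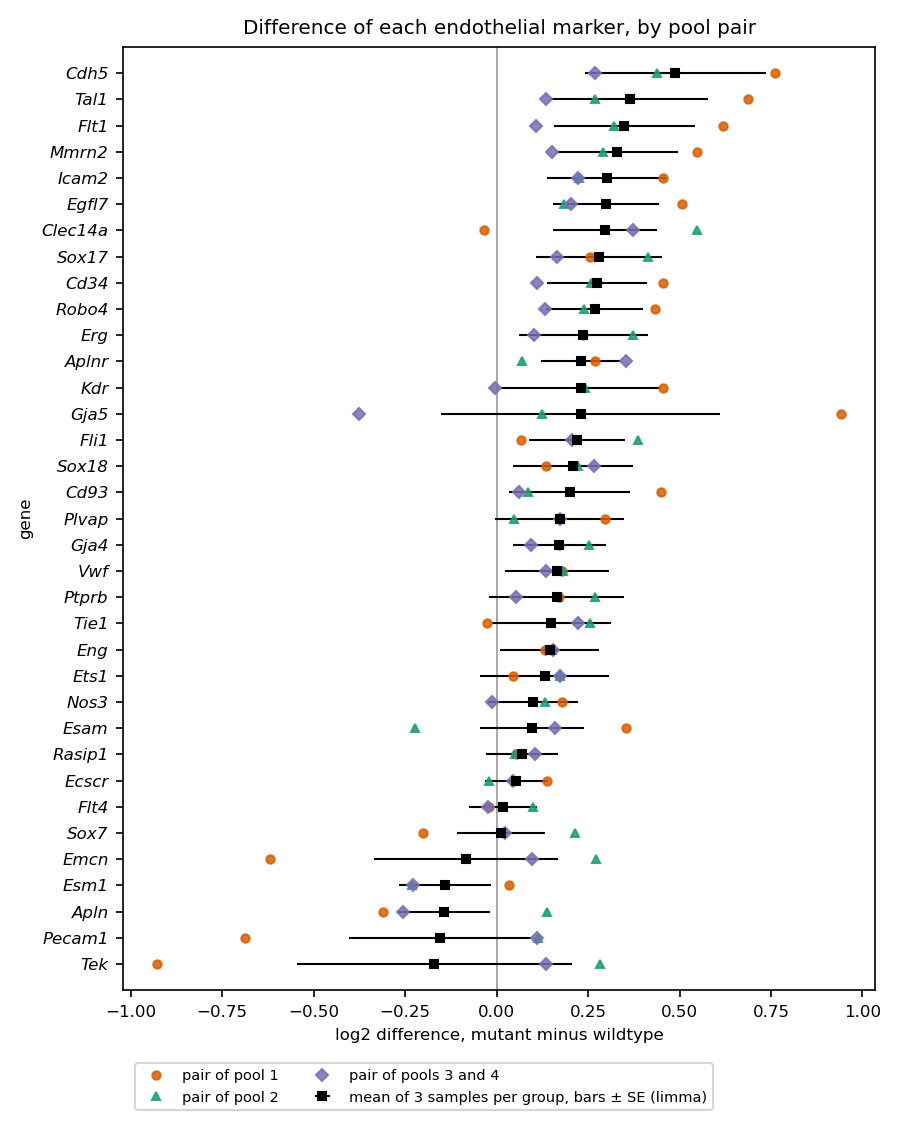
Log2 difference, mutant minus wildtype, of each of the 35 endothelial markers. Coloured points are the 3 pool pairs, and black squares with bars are the mean of 3 samples per group ± SE from limma; the pool 1 points spread from -0.93 to 0.94, more than those of the other pairs.

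The pool 1 pair set much of the spread among members. Its differences had an SD of 0.393 over the 35 members, against 0.16 in pool 2 and 0.152 in pools 3 and 4. Over all genes the SDs were 0.400, 0.258 and 0.229. The order of members in pool 1 bore little relation to that in the other pairs (r = 0.0431 with pool 2 and -0.0087 with pools 3 and 4 over 35 members), while pool 2 and pools 3 and 4 gave r = 0.417. These correlations are across genes of the same arrays and are a description. Beside this stands the disagreement between probes on the mutant 1 array, whose part was not tested. For the 8 members with a second measured probe, the median gap between the probes was 0.319 on that array and 0.0856 to 0.283 on the others.

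The groups themselves overlapped for nearly every member. Only Cd34 and Fli1 had 3 mutant samples above all 3 wildtype samples, which is 5.71% of the list against 8.72% of all genes, and for 0 members did all mutant samples lie below, against 5.95%. By this count the members stood no further apart than other genes. The exact permutation test gave 0.1 for both, the smallest p that 3 against 3 samples allow. On the wildtype 2 array 2 of 35 members exceeded the Cy3 reference, against 41.2% of all genes. Wildtype 2 was the lowest wildtype sample for 29 of 35 members, and mutant 2 the lowest mutant sample for 28. The list's median ratio to wildtype pool 1 was -0.0466, -0.285 and 0.00464 in wildtype samples 1, 2 and 3 and 4, and 0.164, -0.0488 and 0.117 in the mutant samples. The gap between wildtype 2 and the other wildtype samples thus exceeded the difference between groups. Without the wildtype 2 array the median difference was 0.07 and 27 members were higher, and without mutant 2 it was 0.26. Without both wildtype 2 and mutant 1, an alternative chosen after seeing the data, the median was 0.0383 with 25 of 35 higher, against 48.9% of all genes. With the whole pool 2 pair left out, it was 0.17 with 28 of 35 higher.

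**Figure D3:**
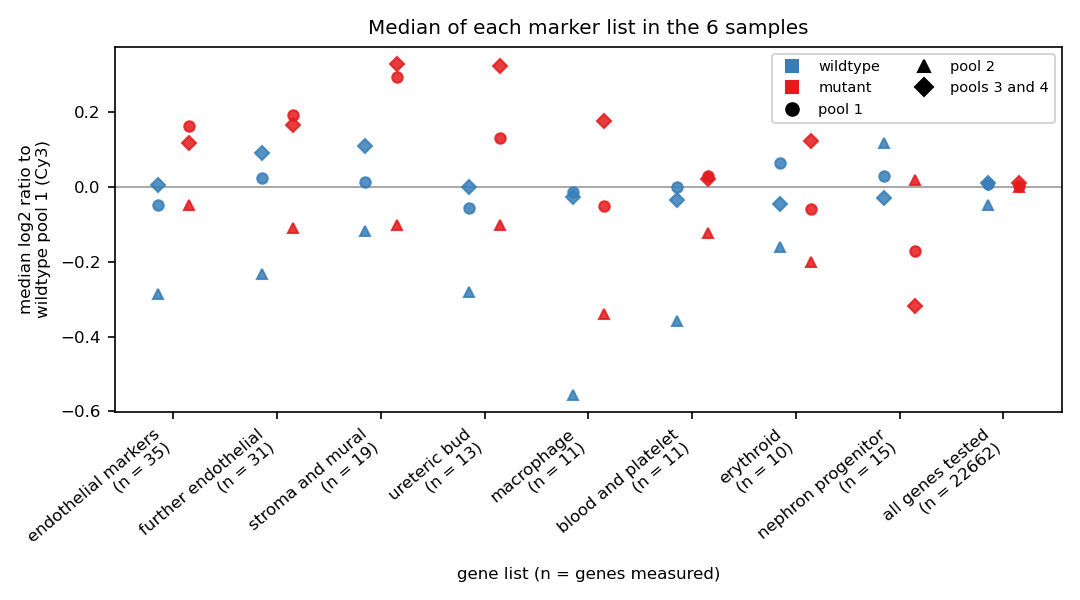
Median log2 ratio to wildtype pool 1 of each marker list (columns) in the 3 wildtype (blue) and 3 mutant (red) samples, with the pool number as the symbol. Pool 2 (triangles) is the lowest sample of its group in every list shown except the nephron progenitor list. It is at -0.285 and -0.0488 in the endothelial list and at -0.558 and -0.339 in the macrophage list.

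Markers of other cell types that a sort could carry over were read from further lists. In the stroma and mural list 14 of 19 measured genes had a higher mutant mean (median 0.20), with summed Cy5 levels of 208606 to 260238 in wildtype and 222395 to 299635 in mutant samples. In the ureteric bud list 8 of 13 were higher (median 0.19; 61124 to 70643 and 65586 to 83400). In the macrophage list 8 of 11 were higher (median 0.07; 13047 to 14829 and 10335 to 15613), and in the blood progenitor and platelet list 6 of 11 (median 0.05; 6314 to 8000 and 6314 to 7603). The erythroid list had 7 of 10 higher with a median of 0.03 (463929 to 539514 and 482138 to 588906). By contrast, 4 of 15 nephron progenitor genes were higher (median -0.18; 155025 to 193745 and 120878 to 139403), and the summed ranges of the groups did not overlap. The progenitor sums include Cited1, which fell by 2.72, and were not computed without it. No sum was scaled between arrays. Every marker of the stroma, ureteric bud, macrophage, blood and erythroid lists that passed the filter on dim probes was well above background on all 8 arrays. Of all genes past that filter 89.9% were. Spi1 of the blood list did not pass the filter, and Cd68 of the macrophage list had no probe. In none of the lists of other cells did a gene pass. The part of such cells in the endothelial difference was not tested.

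By median ratio, pool 2 was the lowest sample of each group in every one of these lists other than the progenitor list. It was at -0.558 in wildtype and -0.339 in mutant samples in the macrophage list, and at -0.359 and -0.124 in the blood and platelet list. The values were -0.116 and -0.101 for stroma, -0.280 and -0.101 for ureteric bud, and -0.160 and -0.201 for the erythroid list. In the progenitor list pool 2 was instead the highest sample of each group, at 0.119 and 0.0183. Over all genes the median ratio was -0.0483 in wildtype 2 and 0.0013 in mutant 2. In median ratio, the variation of endothelial markers between pools of different number was thus accompanied by that of markers of other cells, in both genotypes. The unscaled sums of Cy5 gave another order. Wildtype 2 had the highest wildtype sum in the macrophage, blood and platelet, and erythroid lists (14829, 8000 and 539514), as over all genes (185553000). Mutant 2 had the highest mutant sum in the erythroid list (588906) and the lowest in the stroma, ureteric bud, macrophage, and blood and platelet lists.

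Ligands and partners of these receptors were read from a separate list, of which 16 of 20 genes were measured. None passed, 10 had a higher mutant mean and the median was 0.10. Vegfc, the ligand of Flt4 and Kdr, had the largest difference, 0.70 ± 0.09 or 1.63-fold (SE, adjusted p = 0.11; 0.0632 with the block), and was named after its value was seen, as were the next 3 genes. Vegfa, the ligand of Kdr and Flt1 that nephron cells make, differed by -0.24 ± 0.13. Angpt1, the activating ligand of Tek, differed by 0.31 ± 0.10 and Angpt2, its context-dependent antagonist, by 0.12 ± 0.26. A further list of 35 endothelial genes gave 31 measured, 0 passed and 21 with a higher mutant mean (median 0.12), with pair medians of 0.11, 0.16 and 0.05.

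Scaling between arrays moved every gene, members included. Relative to the median of all genes the members stayed 0.16 to 0.20 higher under each of 4 scalings. The list's own median was 0.17 with loess, 0.23 with Agilent's processed ratio, 0.29 with quantile-normalized Cy5 levels and -0.0185 when arrays were centred on spike-in controls. The last setting moved the median of all genes to -0.208 and left 16 of 35 members with a higher mutant mean, where 13.3% of all genes were higher; quantile-normalized Cy5 moved it to 0.131, with 32 of 35 members and 67.7% of all genes higher. The sign of the list's median thus depended on the scaling, and its place above the median of all genes held under these 4.

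**Figure D4:**
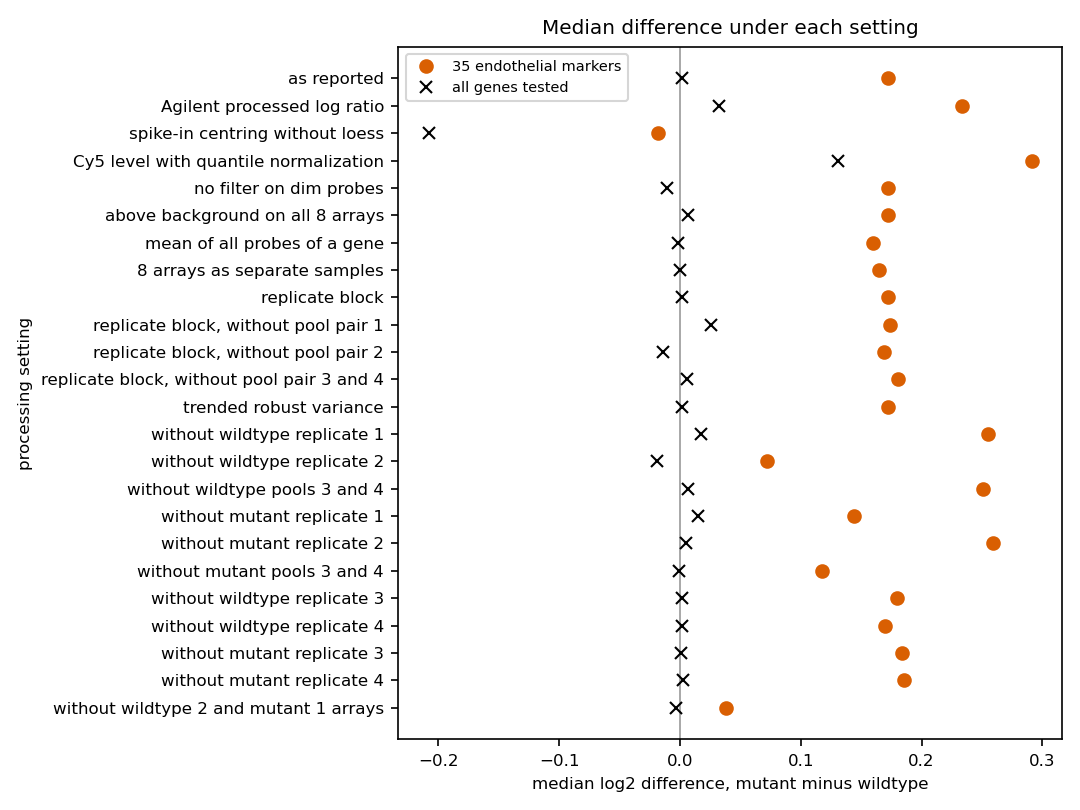
Median log2 difference, mutant minus wildtype, of the 35 endothelial markers (circles) and of all genes tested (crosses) under each processing setting. The markers lie above the median of all genes in every setting shown, from 0.042 above it without the wildtype 2 and mutant 1 arrays to 0.254 above it without mutant replicate 2.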

How the data were processed

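The scanner files give each spot's intensity on a linear scale for 1 two-colour array each, as the authors deposited them; Agilent Feature Extraction 10.7.3.1 wrote them, as the file headers state. The deposited value table holds log10 ratios of Cy5 over Cy3, which matched the ratios in the scanner files with correlations of at least 0.999999 (column medians 0, and 0.00483 for wildtype 2). The latter were an alternative. Median spot signals were background-corrected in limma 3.58.1 under R 4.3.3 by normexp with an offset of 50, then loess-normalized within arrays. Control and outlier spots had weight 0, and spots of a probe were averaged. A probe was kept (30364 were) if 3 or more of a group's 4 arrays put it clearly over background in Cy5. Symbols came from RefSeq accessions (GRCm38.p6), and the brightest probe stood for a gene.

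Cy5 levels of pools 3 and 4 had a median absolute deviation of 0.0841 in wildtype and 0.0893 in mutants. It was 0.0677 to 0.116 between Cy3 levels of the same RNA, without wildtype 2, and 0.162 to 0.592 for the other 26 Cy5 pairs. Groups were compared with limma (lmFit, eBayes, two-sided), with Benjamini-Hochberg adjustment over 22662 genes and a threshold of 0.05. Deviations of same-numbered samples correlated with r = 0.495, 0.543 and 0.527, so the numbers were treated as pairs on the strength of the data. By the file headers, the number is also the array's column on the slide and the group its row, so neither number and column nor group and row can be told apart. P-values measure only the spread between these samples, which may be technical. The number of arrays limits the precision.

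The members and lists were chosen with earlier results of these data known. Full values were to be given for members among the 6 largest differences either way and the 3 smallest p-values; Kdr and Cd34 were added after their values were seen. The fit was tested on simulated data.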

Additional observations from a re-analysis of the deposited data

How the results depend on the processing

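The count of members called, 0 of 35, held under all 23 alternatives run. With 8 arrays as separate samples, 5 members had an unadjusted limma p under 0.05, as did 2972 of all 22662 genes. Equalising Cy3 between arrays leaves ratios unchanged by construction and was not run. The list median was 0.23 with Agilent's processed ratio, -0.0185 with spike-in centring (16 members higher) and 0.29 with quantile-normalized Cy5. Leaving out single samples or pool pairs gave 0.0716 to 0.259, and leaving out the wildtype 2 and mutant 1 arrays, chosen after seeing the data, 0.0383. Of all genes 10 were called as reported, 5 with spike-in centring, 1 with quantile-normalized Cy5, 257 with 8 arrays as separate samples, 34 with the replicate block and 5 with a trended robust variance. Leaving out samples gave 1 to 10, and leaving out pairs in the blocked fit 0 to 47. The cause was not tested.

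Single genes turned sign as follows. With spike-in centring the differences were -0.21 for Flt4, -0.056 for Tie1, -0.028 for Ptprb, -0.22 for Sox7, -0.02 for Erg, -0.067 for Ets1, -0.093 for Esam, -0.027 for Gja4, -0.0015 for Gja5, -0.064 for Eng, -0.12 for Ecscr, -0.082 for Vwf, -0.072 for Nos3 and -0.096 for Rasip1. With quantile-normalized Cy5 they were 0.16 for Apln, 0.072 for Tek, -0.027 for Esam and 0.072 for Emcn. In the fit with the replicate block and without pool pair 1 they were 0.21 for Tek, 0.11 for Pecam1, -0.032 for Esam, -0.13 for Gja5 and 0.18 for Emcn, and without pool pair 2 -0.023 for Flt4 and -0.089 for Sox7. Without wildtype 2 and mutant 1 they were -0.13 for Kdr, -0.051 for Flt4, 0.25 for Tek, -0.038 for Erg, -0.11 for Ets1, 0.14 for Pecam1, -0.0036 for Esam, -0.42 for Gja5, 0.081 for Emcn, -0.027 for Cd93 and -0.035 for Plvap. Leaving out single samples gave ranges of -0.036 to 0.052 for Flt4, -0.46 to 0.29 for Tek, -0.054 to 0.10 for Sox7, -0.0054 to 0.28 for Ets1, -0.33 to 0.15 for Pecam1, -0.032 to 0.23 for Esam, -0.22 to 0.48 for Gja5 and -0.29 to 0.19 for Emcn.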
